A study of Mus musculus with 10 samples.

Results

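The genes described here are 56 genes of DNA replication and mitosis, chosen by name from the count table of a bone RNA sequencing study. All 56 are among the 38962 genes of the table, and all 56 passed the filter on low counts that left 22088 genes for testing. The study set 5 Old mice (22 months) against 5 Young mice (2 months), all male C57BL/6J, with no genetic change or treatment in either group. The aged mice came from the National Institute of Aging colony at 16 months and were then kept in house, while the young ones were bought from the Jackson Laboratory, so supplier and age cannot be told apart. RNA was taken from the pulverized femur after its marrow had been flushed out, and each library came from 1 mouse.

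Before a cell divides, its origins of replication are licensed by loading of the MCM helicase, the DNA is copied behind that helicase with nucleotides made by ribonucleotide reductase and thymidylate synthase, and the copied chromosomes are then condensed and pulled apart on the spindle. Cyclins bound to cyclin-dependent kinases start each step, and most of the genes involved are transcribed mainly in dividing cells, in a wave set by E2F factors at the start of replication and by the B-MYB and FOXM1 factors at mitosis. In adult long bone most dividing cells are blood cell precursors of the marrow, with growth plate chondrocytes and osteoblast precursors beside them in young, growing animals.

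The libraries held 31788232 to 45075335 counts in Old mice and 33447009 to 40395050 counts in Young mice. Levels are given in CPM, that is counts scaled to a common library size after correction by the trimmed mean of M values (TMM), and each member had at least 88 counts in every library. In bulk tissue, fewer cells of a type and less RNA per cell cannot be told apart. Marrow cell markers were found in every library in spite of the flushing, and 2 libraries stood apart in the members' levels. Old 2 was the highest Old library in summed CPM of the members and also held 10433 CPM of red cell precursor markers, against 3732 to 5794 CPM in the other Old libraries. In B cell progenitor markers Old 2 was not the highest, at 173 CPM within an Old range of 152 to 234 CPM. Young 4 was the highest of all libraries for 48 of the 56 members. Gm26917, a single noncoding gene, took 16.1% to 31.0% of the counts in Old and 14.5% to 24.0% in Young libraries, and the members took 0.307% to 0.516% in Old and 0.378% to 0.729% in Young libraries.

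Genes of this kind share short promoter motifs, and the promoters of 5 members that fell in Old bone are shown as examples of the motifs in replication and in mitotic genes. Capitals mark matches on either strand to the cell cycle homology region (CHR, TTTGAA or TTCGAA), the CCAAT box (CCAAT, which reads ATTGG on the other strand) and the E2F site (TTTCCCGC, TTTCGCGC, TTTGCCGC or TTTGGCGC). The windows run from 250 bases before to 50 bases after the gene start of RefSeq on GRCm38.p6, the build of the count table.
Mcm6, GRCm38.p6, chr1:128359656-128359955, - strand: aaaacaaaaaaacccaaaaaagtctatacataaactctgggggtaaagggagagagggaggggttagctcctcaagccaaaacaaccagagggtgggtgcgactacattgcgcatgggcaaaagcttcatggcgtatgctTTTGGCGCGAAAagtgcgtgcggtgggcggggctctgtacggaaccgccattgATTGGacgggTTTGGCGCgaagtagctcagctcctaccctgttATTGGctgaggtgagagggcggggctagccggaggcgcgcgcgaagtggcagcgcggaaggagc
Ezh2, GRCm38.p6, chr6:47594981-47595280, - strand: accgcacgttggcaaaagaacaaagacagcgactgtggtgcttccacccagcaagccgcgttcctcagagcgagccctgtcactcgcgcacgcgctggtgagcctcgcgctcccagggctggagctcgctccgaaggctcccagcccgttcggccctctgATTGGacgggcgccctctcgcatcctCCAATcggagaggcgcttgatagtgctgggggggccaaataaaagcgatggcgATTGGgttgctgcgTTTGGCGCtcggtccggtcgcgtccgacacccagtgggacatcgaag
Bub1, GRCm38.p6, chr2:127831810-127832109, - strand: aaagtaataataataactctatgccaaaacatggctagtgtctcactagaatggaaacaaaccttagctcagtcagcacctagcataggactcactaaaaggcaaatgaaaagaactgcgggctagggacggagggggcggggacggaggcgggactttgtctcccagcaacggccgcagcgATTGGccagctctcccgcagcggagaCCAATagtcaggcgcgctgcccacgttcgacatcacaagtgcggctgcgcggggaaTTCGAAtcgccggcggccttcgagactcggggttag
Cenpa, GRCm38.p6, chr5:30666636-30666935, + strand: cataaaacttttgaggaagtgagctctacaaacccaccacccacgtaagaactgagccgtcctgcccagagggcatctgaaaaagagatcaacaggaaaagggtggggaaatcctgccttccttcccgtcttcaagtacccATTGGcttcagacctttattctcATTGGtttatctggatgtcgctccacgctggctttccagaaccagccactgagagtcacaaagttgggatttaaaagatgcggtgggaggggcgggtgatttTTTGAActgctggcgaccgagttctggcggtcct
Kif4, GRCm38.p6, chrX:100625815-100626114, + strand: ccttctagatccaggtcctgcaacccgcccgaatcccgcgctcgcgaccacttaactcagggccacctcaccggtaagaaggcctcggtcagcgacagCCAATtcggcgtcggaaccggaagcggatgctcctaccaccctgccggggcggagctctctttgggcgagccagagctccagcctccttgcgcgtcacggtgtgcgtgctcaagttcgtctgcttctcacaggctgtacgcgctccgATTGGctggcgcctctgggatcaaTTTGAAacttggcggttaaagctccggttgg
Mcm6 and Ezh2, genes of replication and chromatin, held E2F sites and CCAAT boxes but no CHR, whereas the mitotic genes Bub1, Cenpa and Kif4 held 1 CHR and 2 CCAAT boxes each but no E2F site. Mcm2 and Brca1, which also fell but are not shown, did not follow this split. Mcm2 held 1 CHR and 1 CCAAT box but no E2F site, and Brca1 held 1 CCAAT box but no CHR and no E2F site. The first run of capitals in Mcm6 is 2 overlapping E2F sites on opposite strands. The RefSeq start of Kif4 lies 328 bases, and that of Ezh2 311 bases, from the 5′ end of the gene in the count table.

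Of the 56 members, 46 had a promoter in the RefSeq table and 10 did not (Ccna2, Ccne2, Cdc25c, Foxm1, Mcm4, Gins1, Gins2, Aurkb, Kif20a and Tpx2). A CHR was present in 24 of these 46 (52.2%), against 19.2% of all 32851 promoters of the same length. A CCAAT box was present in 34 of 46 (73.9%), against 37.4% of all promoters, and an E2F site in 9 of 46 (19.6%), against 2.26%. Both a CHR and a CCAAT box were present in 22 of 46 (47.8%), against 7.52% of all promoters. By role, 18 of the 22 promoters of the mitotic kinase, chromosome and spindle lists held a CHR and 0 of 22 held an E2F site. Of 8 origin licensing and helicase promoters, 6 held an E2F site and 3 a CHR. In the fork list 0 of 4 held an E2F site and 0 of 4 a CHR, and in the checkpoint, repair and chromatin list 1 of 4 and 0 of 4. The difference between roles was not tested. Some windows lie far from the 5′ end of the gene in the count table. The RefSeq start was 3867 bases from it for Kif2c, which is counted with a CHR. It was 539 bases away for Mcm7 and 350 for Cdc6, both counted with an E2F site, 466 for E2f1 and 407 for Chek1. All 7 promoters of members that fell in Old bone held a CCAAT box, 4 held a CHR and 2 an E2F site. Matches overlapped in Mcm5 and Mcm6 (E2F sites), Mcm7 (a CCAAT box with an E2F site), Uhrf1 and Ube2c (CCAAT boxes), and a match is a stretch of letters rather than a measured binding site.

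**Figure D1:**
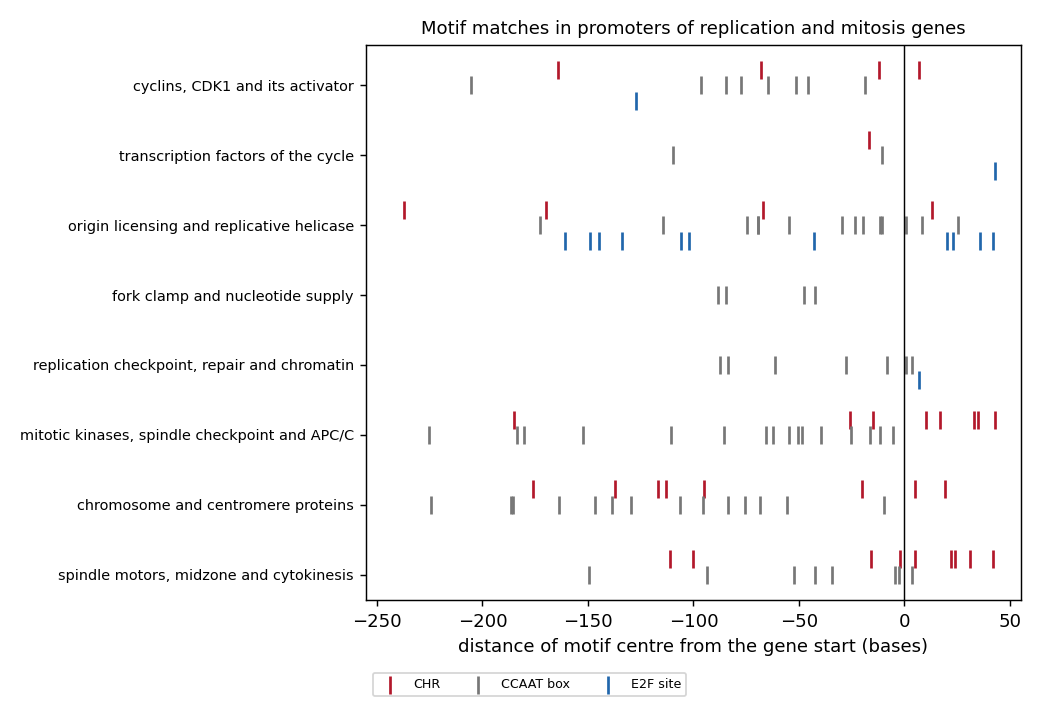
Positions of CHR, CCAAT box and E2F matches in the promoters of 46 members, by role; the x axis is the distance of the centre of the motif from the gene start in bases and each tick is 1 match. Red CHR ticks fill the 3 mitotic rows, where 18 of 22 promoters hold one, and blue E2F ticks lie mostly in the licensing row.

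The comparison asked how the 56 genes stand in Old against Young bone. Levels were lower in Old bone throughout: all 56 members had a log2 fold change (Old over Young) below 0, against 49.1% of all tested genes, and their median was -0.37, against 0.01 over all tested genes. The decreases were modest, with 38 members at a decrease of 0.25 to 0.5 on the log2 scale, 9 under 0.25 and 9 at 0.5 or more. At an adjusted p of at most 0.05 (edgeR's quasi-likelihood test, Benjamini-Hochberg over all tested genes), 9 members fell and 0 rose, where 3.61% of all tested genes fell and 3.68% rose. The 9 were Bub1, Ezh2, Brca1, Cenpa, Kif4, Ccna2, Mcm4, Mcm2 and Mcm6. Without adjustment, 42 of 56 had a p under 0.05 with a lower level in Old (12.4% of all tested genes), and 0 had one with a higher level. Just inside the threshold was Mcm6 (edgeR's adjusted p = 0.0498), and just outside were Tyms (0.0507), Ccnb1 (0.0522), Ccne2 (0.0543) and Top2a (0.0552). All Old libraries lay below all Young libraries for Bub1, Brca1 and Kif4, an arrangement found in 4.12% of all tested genes. The members share their libraries, so they are not independent observations.

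How many members fell depended on single libraries. It was 25 without Old 2, when 3.44% of all genes tested fell, 14 without Young 5 (3.71%) and 11 without Young 3 (3.01%). It was 5 without Old 1 (3.63%) or without Old 5 (3.08%), 4 without Old 4 (2.89%) or without Young 1 (2.52%), 3 without Old 3 (2.13%), and 2 without Young 2 (1.73%) or without Young 4 (2.01%). Bub1 was the one member that fell in all 10 of these fits. DESeq2 called 20 members lower (4.93% of the genes it tested), 11 of them beside the same 9. In these fits 0 members rose, and the median log2 fold change of the members stayed between -0.45 and -0.29.

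**Figure D2:**
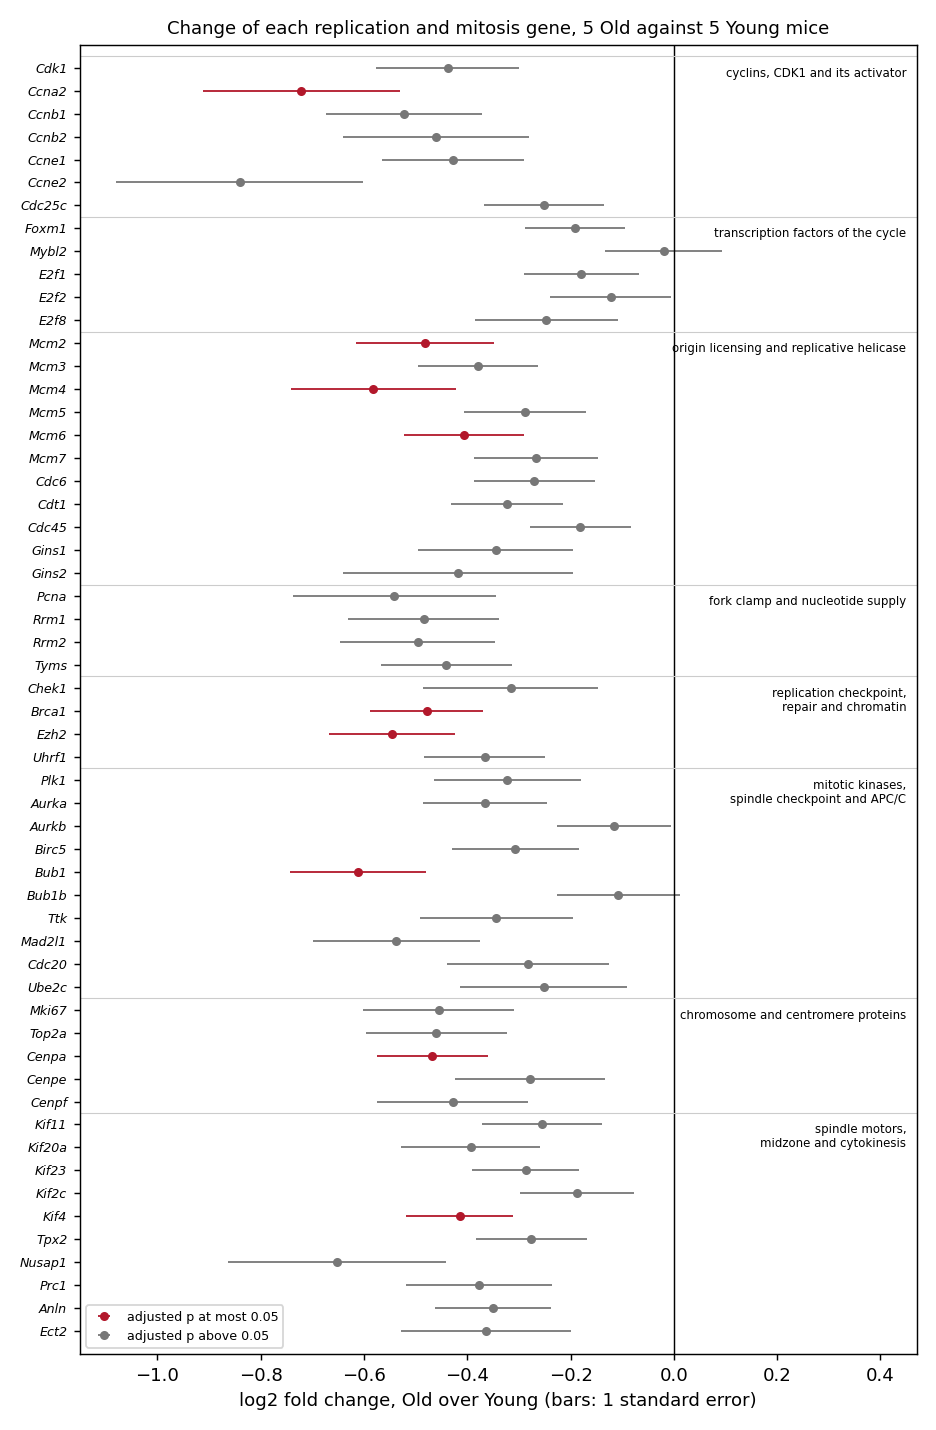
Log2 fold change of each of the 56 members (points, Old over Young, n = 5 mice each) with 1 standard error (bars), grouped by role, with genes at an adjusted p of at most 0.05 in red. Every point lies left of 0, between -0.84 for Ccne2 and -0.02 for Mybl2, and the 9 red points are spread over 6 of the 8 groups.

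CDK1 with cyclins A2, B1 and B2 drives replication into mitosis, the E cyclins act with CDK2 at the start of replication, and CDC25C removes the inhibitory phosphate from CDK1. Of these 7 genes, 1 fell in Old bone (median log2 fold change -0.46). With 7 genes, 1 call is near the share over all tested genes, of which 3.61% fell. Ccna2 (cyclin A2, ENSMUSG00000027715.9, GRCm38 chromosome 3, 36564865 to 36572150) had 54.9, 73.2, 42.6, 40.3 and 50.3 CPM in Old 1 to 5, against 71.4, 99.2, 60.7, 115 and 84.5 CPM in Young 1 to 5. Its level fell by 0.72 on the log2 scale (SE 0.19, edgeR's adjusted p = 0.0400), a mean 39.3% lower in Old, and only Old 2 reached into the Young range. The call was lost without any 1 of 8 libraries (all but Old 2 and Young 3), with adjusted p between 0.0502 and 0.107. Ccnb1, for cyclin B1, the partner of CDK1 at entry to mitosis, did not pass the threshold (edgeR's adjusted p = 0.0522), with 26.8, 40.6, 25.4, 25.6 and 28.6 CPM in Old and 37.5, 48.2, 33.8, 51.7 and 40.1 CPM in Young libraries (log2 fold change -0.52, SE 0.15). Ccne2, one of the E cyclins, had 19.1, 18.1, 12.9, 11.5 and 18.2 CPM in Old and 22.9, 43.0, 22.0, 36.9 and 18.4 CPM in Young libraries. That was the widest difference of any member (log2 fold change -0.84), but Young 2 and Young 4 lay far above the other Young libraries and the standard error was 0.24. Cdk1 itself had 26.6, 35.7, 24.5, 23.1 and 26.3 CPM in Old and 37.1, 38.5, 30.5, 46.0 and 32.5 CPM in Young libraries (log2 fold change -0.44, SE 0.14, edgeR's adjusted p = 0.0689). Old 2 was again the only Old library inside the Young range. Ccne1, Ccnb2 and Cdc25c had log2 fold changes of -0.43, -0.46 and -0.25.

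The 5 transcription factors that run the wave had log2 fold changes from -0.25 to -0.02. With 5 genes, 0 calls is near the share over all tested genes, of which 3.61% fell. E2F1 and E2F2 activate replication genes, E2F8 represses them later in the cycle, and FOXM1 and B-MYB (Mybl2) activate mitotic genes. In edgeR's test 0 of the 5 passed and 0 had an unadjusted p under 0.05, DESeq2 and limma-voom also called 0, and the median log2 fold change, -0.18, was the smallest difference of the 8 groups. Foxm1 had 45.0, 57.3, 54.5, 52.2 and 50.8 CPM in Old and 64.7, 53.2, 55.1, 65.2 and 58.5 CPM in Young libraries (log2 fold change -0.19, SE 0.10, edgeR's adjusted p = 0.231). E2f8 had 58.8, 79.0, 62.2, 55.5 and 61.5 CPM in Old and 75.2, 74.4, 58.6, 99.6 and 68.1 CPM in Young libraries (log2 fold change -0.25). E2f1 had 22.4, 32.1, 33.5, 32.1 and 30.3 CPM in Old and 34.3, 31.0, 35.6, 34.8 and 34.5 CPM in Young libraries (log2 fold change -0.18). The groups overlapped for all 3, and E2f1 was low in Old 1 alone. E2f2 averaged 255 ± 29.1 CPM in Old and 277 ± 33.2 CPM in Young (SD, n = 5 each), and Mybl2 53.3 ± 6.59 against 54.0 ± 6.62 CPM. Whether these 5 genes changed less than the genes they control was not tested.

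In origin licensing, the longest of the 8 lists, 3 of 11 genes fell (27.3%, median log2 fold change -0.35), where 3.61% of all tested genes fell. The 6 MCM proteins form the ring of the helicase, CDC6 and CDT1 load it on DNA, and CDC45 and the GINS subunits switch it on. Mcm4 (ENSMUSG00000022673.5, chromosome 16, 15623897 to 15637400) had 31.6, 43.5, 27.4, 25.7 and 35.3 CPM in Old and 45.6, 57.7, 40.4, 60.7 and 40.3 CPM in Young libraries. It fell by 0.58 (SE 0.16, edgeR's adjusted p = 0.0436). Mcm2 (ENSMUSG00000002870.8, chromosome 6, 88883474 to 88898780) had 59.1, 88.8, 65.9, 65.0 and 68.7 CPM in Old and 91.9, 112, 74.2, 109 and 98.5 CPM in Young libraries, and it fell by 0.48 (SE 0.13, edgeR's adjusted p = 0.0438). Mcm6 (ENSMUSG00000026355.11, chromosome 1, 128331590 to 128359664) had 69.4, 86.6, 69.0, 74.5 and 74.5 CPM in Old and 96.3, 110.1, 88.6, 119 and 81.4 CPM in Young libraries, and it fell by 0.41 (SE 0.12, edgeR's adjusted p = 0.0498). For these 3 subunits, Old 2 was the only Old library above the lowest Young library. All 3 calls were lost without Old 1, Old 3, Old 4, Old 5, Young 1, Young 2 or Young 4, that of Mcm2 also without Young 5 and that of Mcm6 also without Young 3 (adjusted p 0.056 to 0.146 over these fits). The other subunits had log2 fold changes of -0.38 (Mcm3), -0.29 (Mcm5) and -0.27 (Mcm7), so the 6 subunits lay between -0.58 and -0.27. The loaders Cdt1 and Cdc6 stood at -0.32 and -0.27, and Gins1, Gins2 and Cdc45 at -0.35, -0.42 and -0.18.

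At the fork, PCNA is the sliding clamp that holds DNA polymerase on its template, RRM1 and RRM2 are the subunits of ribonucleotide reductase, and TYMS (thymidylate synthase) makes the precursor of thymidine nucleotides. In edgeR's test 0 of these 4 genes passed the threshold, although all 4 had an unadjusted p under 0.05, DESeq2 called 3 and limma-voom 0, and their median log2 fold change, -0.49, was the lowest of the 8 groups. Tyms had 22.4, 27.7, 20.5, 19.8 and 22.6 CPM in Old and 28.6, 33.2, 24.9, 37.5 and 29.3 CPM in Young libraries (log2 fold change -0.44, SE 0.13). Rrm1 had 86.1, 97.7, 72.0, 63.8 and 89.6 CPM in Old and 96.8, 135, 102, 141 and 96.6 CPM in Young libraries (-0.48, SE 0.15, edgeR's adjusted p = 0.0594). Rrm2 had 99.5, 137, 101, 91.0 and 108 CPM in Old and 140.4, 177, 116, 192 and 129.9 CPM in Young libraries (-0.50, SE 0.15, edgeR's adjusted p = 0.0598). The reductase subunits therefore differed by about the same fold, with Old 2 the only Old library inside the Young range for both. Pcna had 41.9, 65.0, 31.1, 34.3 and 49.0 CPM in Old and 58.4, 78.9, 54.4, 78.3 and 52.2 CPM in Young libraries (-0.54, SE 0.20, edgeR's adjusted p = 0.109). Its fold change was the largest of the 4, with the largest standard error.

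In the group of checkpoint, repair and chromatin genes 2 of 4 fell, where 3.61% of all tested genes fell. EZH2 is the methyltransferase of the Polycomb repressive complex PRC2, BRCA1 acts in homologous recombination, UHRF1 carries DNA methylation over to the new strand, and CHK1 (Chek1) is the kinase of the replication checkpoint. Ezh2 (ENSMUSG00000029687.16, chromosome 6, 47530139 to 47595341) had 67.2, 63.5, 54.4, 52.7 and 70.6 CPM in Old and 91.5, 101, 86.5, 102 and 69.8 CPM in Young libraries. It fell by 0.55 (SE 0.12, edgeR's adjusted p = 0.0179), the groups touching only where Old 5 lay above Young 5, and the call was lost without Young 2 (0.0583). Brca1 (ENSMUSG00000017146.12, chromosome 11, 101488764 to 101551955) had 41.0, 47.3, 42.1, 36.0 and 43.0 CPM in Old and 56.5, 57.2, 50.3, 71.6 and 56.03 CPM in Young libraries. It fell by 0.48 (SE 0.11, edgeR's adjusted p = 0.0195) with no overlap, and the call was lost without Young 4 (0.056). Uhrf1 had 73.0, 108, 84.8, 81.3 and 83.8 CPM in Old and 116, 108, 97.3, 129.6 and 104 CPM in Young libraries (log2 fold change -0.37, SE 0.12, edgeR's adjusted p = 0.0712). Chek1, at 7.62 ± 0.941 CPM in Old and 9.48 ± 2.30 CPM in Young (SD, n = 5 each), was lowest of all libraries in Young 5. The summed CPM of this group was the only one of the 8 that did not overlap, at 177 to 225 CPM in Old and 236 to 315 CPM in Young libraries. Among the lists of other genes read below, homologous recombination and fork protection did not overlap either (509 to 549 CPM in Old, 572 to 722 in Young). The same held for DNA polymerases and fork factors (664 to 710 CPM in Old, 715 to 843 in Young).

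Among the mitotic kinases and their control, 1 of 10 genes fell (median log2 fold change -0.31). With 10 genes, 1 call is near the share over all tested genes, of which 3.61% fell. Bub1 (ENSMUSG00000027379.13, chromosome 2, 127801122 to 127831865), a kinase of the spindle assembly checkpoint that marks the centromere, had 19.7, 19.4, 16.4, 17.3 and 19.6 CPM in Old and 25.4, 32.1, 24.96, 36.2 and 22.4 CPM in Young libraries. It fell by 0.61 (SE 0.13), a mean 34.5% lower in Old, and its adjusted p was the smallest of the members (edgeR's adjusted p = 0.0146). The call held without each library in turn, with adjusted p between 0.00901 and 0.0496. Mad2l1, whose product MAD2 holds back the anaphase-promoting complex, had 19.4, 23.2, 13.9, 17.5 and 20.4 CPM in Old and 25.7, 33.4, 24.7, 33.5 and 19.9 CPM in Young libraries (log2 fold change -0.54, SE 0.16, edgeR's adjusted p = 0.0587). Aurka (Aurora A, a kinase of the spindle poles) had 19.8, 28.9, 19.5, 22.0 and 22.9 CPM in Old and 27.2, 30.0, 25.4, 32.5 and 30.7 CPM in Young libraries (-0.37, SE 0.12, edgeR's adjusted p = 0.0785). Young 5 was the low Young library for Mad2l1, and Old 2 the high Old one for Aurka. Bub1b, which encodes the related checkpoint protein BUBR1, averaged 54.3 ± 5.22 CPM in Old and 58.5 ± 9.37 CPM in Young (SD, n = 5 each, log2 fold change -0.11). Plk1, Ttk and Birc5 (survivin) had log2 fold changes of -0.32, -0.34 and -0.31. Aurkb stood at -0.12, and Cdc20 and Ube2c, the activator and the ubiquitin-conjugating enzyme of the anaphase-promoting complex, at -0.28 and -0.25.

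Mki67, the member with the most RNA, encodes Ki-67, the coat protein of mitotic chromosomes used as a marker of dividing cells. It had 908, 1091, 909.5, 772 and 920.2 CPM in Old and 1208, 1265, 1086, 1637 and 1109 CPM in Young libraries. Old 2 exceeded Young 3 by a small margin, and otherwise all Old libraries lay below all Young ones (log2 fold change -0.46, SE 0.15, edgeR's adjusted p = 0.0738). Top2a, the topoisomerase that untangles sister chromatids, had 259, 269.8, 224, 215 and 259 CPM in Old and 335, 371, 306, 420.4 and 254 CPM in Young libraries (-0.46, SE 0.14). Here Young 5 lay within the Old range. Cenpa (ENSMUSG00000029177.9, chromosome 5, 30666777 to 30674830), the histone H3 variant that defines the centromere, had 57.1, 71.6, 55.2, 54.98 and 55.8 CPM in Old and 78.8, 90.2, 69.6, 90.1 and 78.8 CPM in Young libraries. It fell by 0.47 (SE 0.11, edgeR's adjusted p = 0.0199), and the call was lost without Old 3 (0.0504), Young 2 (0.0643) or Young 4 (0.0658). The kinetochore motor Cenpe and the kinetochore protein Cenpf had log2 fold changes of -0.28 and -0.43. Per kilobase of exon, which allows genes to be compared, Mki67 averaged 91.5 CPM in Old and 125 CPM in Young libraries, E2f2 52.2 against 56.8, Rrm2 38.7 against 54.5, Top2a 27.2 against 37.4, and Gins2, the lowest member, 1.09 against 1.46.

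Of 10 genes for spindle motors, midzone and cytokinesis, 1 fell (median log2 fold change -0.36), near the share over all tested genes, of which 3.61% fell. Kif4 (ENSMUSG00000034311.3, chromosome X, 100625737 to 100727214), a kinesin of chromosome arms and the spindle midzone, had 44.3, 44.4, 38.3, 35.3 and 44.0 CPM in Old and 53.2, 56.5, 52.9, 63.8 and 48.3 CPM in Young libraries. The groups did not overlap and Kif4 fell by 0.41 (SE 0.10, edgeR's adjusted p = 0.0290). The call was lost without Old 3, Old 4, Young 1, Young 2 or Young 4 (adjusted p 0.0503 to 0.0824). Anln (anillin, a scaffold of the cleavage furrow) had 72.8, 76.8, 67.3, 61.2 and 74.6 CPM in Old and 93.4, 89.1, 82.9, 109.6 and 74.6 CPM in Young libraries (-0.35, SE 0.11, edgeR's adjusted p = 0.0725). Nusap1, which encodes a microtubule-binding protein of the spindle, had 30.6, 37.3, 20.9, 21.9 and 29.9 CPM in Old and 37.7, 58.4, 33.8, 58.9 and 32.2 CPM in Young libraries. Its log2 fold change of -0.65 came with an SE of 0.21 (edgeR's adjusted p = 0.0795), since Young 2 and Young 4 stood well above the other Young libraries. The remaining kinesins lay at -0.39 (Kif20a), -0.29 (Kif23), -0.26 (Kif11) and -0.19 (Kif2c), with Prc1, which bundles midzone microtubules, at -0.38, Ect2, the activator of RhoA at the furrow, at -0.36, and Tpx2, a spindle assembly factor, at -0.28.

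**Figure D3:**
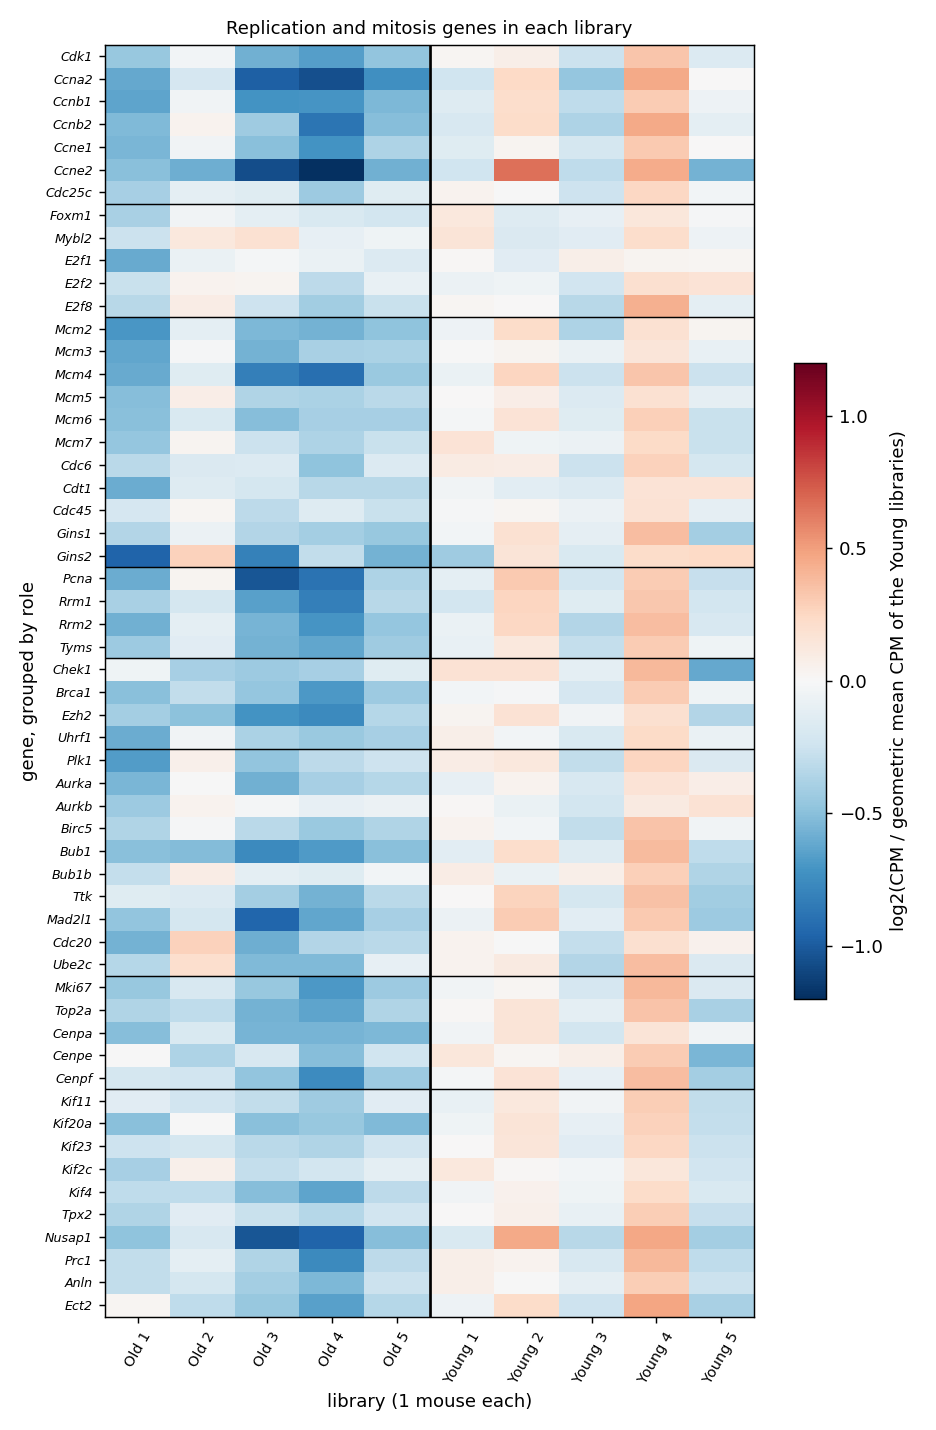
Level of each member (rows, grouped by role) in each of 10 libraries (columns, Old left of Young), as log2 of CPM over the geometric mean of the Young libraries; blue is below and red above that mean. The Young 4 column is red in all 56 rows and the Old 1, Old 3, Old 4 and Old 5 columns are above the Young mean in at most 2 rows each, while the Old 2 column is above it in 15 rows.

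The libraries of a group differed in the members' levels. The median over the members of log2 CPM against the Young mean was -0.45, -0.12, -0.46, -0.49 and -0.34 in Old 1 to 5, and -0.02, 0.10, -0.19, 0.30 and -0.18 in Young 1 to 5. Old 2 was therefore above Young 3 and Young 5, and the groups overlapped in this measure. Summed over the members, the level was 3739, 4494, 3709.5, 3354 and 3896 CPM in Old and 4870.3, 5245, 4379, 6151 and 4387 CPM in Young libraries, again with Old 2 alone inside the Young range. The highest library was a Young one for 54 of 56 members and the lowest an Old one for 53 of 56. Old 4 was lowest for 27, Old 1 for 14, Old 3 for 10 and Old 5 for 2 members, and Young 5 was lowest for Chek1, Bub1b and Cenpe. The ratio of summed CPM in the mitotic kinase and spindle lists to that in the licensing and fork lists was 0.978 to 1.14 in Old and 0.950 to 1.04 in Young libraries, and these ranges overlapped.

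Other genes of the same processes were read from 8 lists chosen by role, and 16 of 149 fell in Old bone while 0 rose, where 3.61% of all tested genes fell and 3.68% rose. The median log2 fold change of the 149 was -0.23 and 128 were below 0 (49.1% of all tested genes). With 13 to 23 genes a list, 1 call in a list is near the share over all genes. Of 18 genes of homologous recombination and fork protection 4 fell. They included Bard1, the partner of BRCA1 (log2 fold change -0.41, SE 0.10, edgeR's adjusted p = 0.0268), the exonuclease gene Exo1 (-0.43) and Rad54l (-0.31). Among DNA polymerases and fork factors 2 of 20 fell. Pole2, a subunit of the leading strand polymerase epsilon, averaged 6.74 CPM in Old and 10.7 CPM in Young libraries without overlap (-0.66, SE 0.11, edgeR's adjusted p = 0.00442), and Rfc4, of the complex that loads PCNA, fell by 0.64. The origin recognition subunits Orc1 (-0.53) and Orc2 (-0.42) were the 2 of 16 origin genes that fell, and 2 of 13 genes of nucleotide synthesis fell, among them Dut (-0.39), which encodes the enzyme that removes dUTP. On the mitotic side 3 of 23 kinetochore genes fell (Cenpp by 0.56, Cenpn by 0.52 and Cenpi by 0.56), 2 of 19 genes of condensin, cohesin and separase (Ncapg2, a condensin II subunit, by 0.47 and Sgo1, the protector of centromeric cohesin, by 0.59), and 1 of 18 passenger and cytokinesis genes (Aspm, of the spindle poles, by 0.44). Of 22 genes of commitment to the cycle, such as D cyclins, CDK4, the RB family and MYC, 0 fell and 0 rose in edgeR's test (median log2 fold change -0.12, 16 below 0), and DESeq2 called 0 lower and 2 higher. At an unadjusted p under 0.05 were 6 of them, with log2 fold changes above 0 for E2f6 (0.57), Ccnd1 (0.32) and Rbl2 (0.19) and below 0 for the other 3. DESeq2 called 28 of the 149 lower (4.93% of the genes it tested), and the number by edgeR called lower was 3 without Young 2, 4 without Young 4, 6 without Old 3, 7 without Old 4 or without Old 5 and 8 without Young 1.

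**Figure D4:**
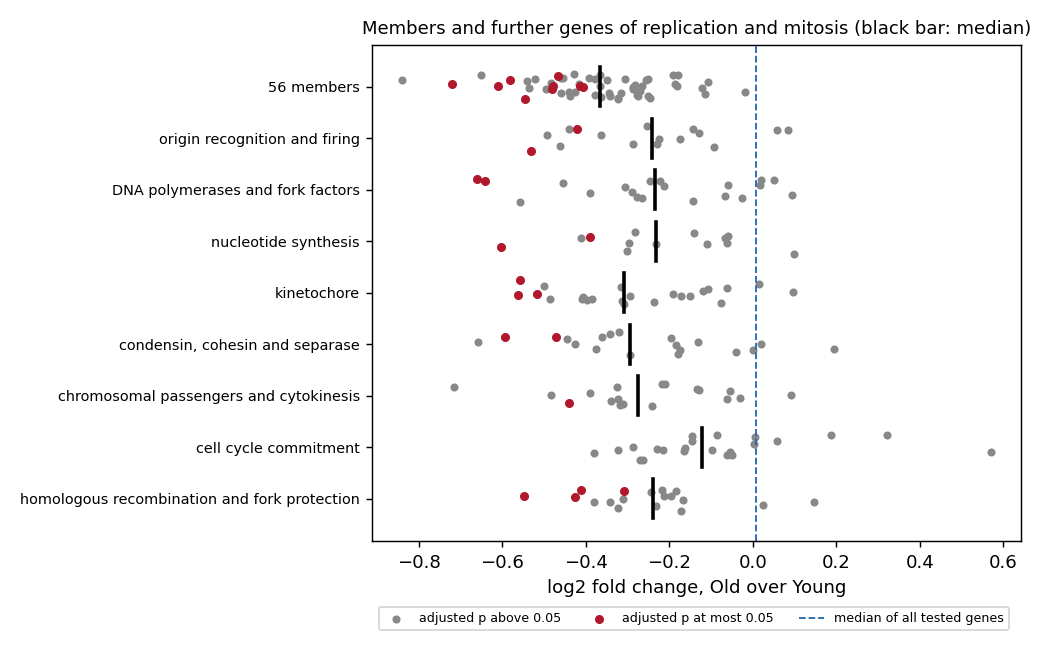
Log2 fold change (Old over Young) of the 56 members and of 149 further genes in 8 lists; each point is 1 gene, red at an adjusted p of at most 0.05, with list medians as black bars and the median of all tested genes (0.01) as a dashed line. The list medians lie left of the dashed line, closest to it for cell cycle commitment (-0.12), which has no red point.

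Markers of the cell types that the samples could hold were read beside these results. B cell progenitor markers did not overlap, with a summed level of 152 to 234 CPM in Old and 239 to 353 CPM in Young libraries (two-sided exact permutation test over 252 splits, p = 0.00794, the smallest it can give; adjusted over 11 marker lists, 0.0873). In that list 8 of 9 tested genes fell, with Ebf1 (-0.57) and Pax5 (-0.59) the most abundant, and Rag1, a recombinase of lymphocyte precursors, at 13.8 ± 4.67 CPM in Old and 45.8 ± 11.5 CPM in Young (SD, n = 5 each). Red cell precursor markers reached 3732 to 10433 CPM in Old and 5111 to 10425 CPM in Young libraries (exact permutation p = 0.222), and 0 of 13 passed edgeR's test, with 5 at an unadjusted p under 0.05 and 3 called lower by DESeq2 (median log2 fold change -0.40, Hbb-bs -0.49, Hba-a1 -0.16). Neutrophil precursor markers reached 1240 to 3733 CPM in Old and 1540 to 2148 CPM in Young libraries, and 0 of 11 passed, with 1 at an unadjusted p under 0.05 and 0 called by DESeq2 (median 0.27, Ltf 0.39, Ngp 0.29). Old 2, the Old library nearest to Young in the members, was the highest Old library in both of these lists, and Young 4 was the highest Young library in both. The B cell progenitor list did not follow this order. There Old 2 stood at 173 CPM, with Old 1 the highest Old library (234 CPM), and Young 4 at 316 CPM, with Young 1 the highest Young library (353 CPM). Among markers of growing bone, 5 of 12 chondrocyte genes and 5 of 9 osteoblast genes fell, where 3.61% of all tested genes fell. The median log2 fold change was -1.38 over the 12 and -1.22 over the 9. The most abundant chondrocyte markers, Col11a2 (-0.79, edgeR's adjusted p = 0.0587) and Col2a1 (-0.57, 0.445), did not pass, and Ihh was above 0 (0.55). Of the osteoblast markers, Col1a1 (-1.22) and Col1a2 (-1.30) fell. Ibsp (-1.34), Runx2 (-0.14), Sp7 (-0.25) and Bmp3 (0.19) did not pass. Chondrocyte markers summed to 746 to 1632 CPM in Old and 1057 to 2775 CPM in Young libraries (exact permutation p = 0.0556, adjusted 0.204). Osteoblast markers summed to 18355 to 45242 CPM in Old and 42729 to 90745 CPM in Young libraries (exact permutation p = 0.0159). Their adjusted value, 0.0873, was the same as that of the B cell progenitor list. Skeletal muscle markers summed to 13821 to 36136 CPM in Old and 9004 to 28142 CPM in Young libraries, and 0 of 11 passed, with 1 at an unadjusted p under 0.05 and 0 called by DESeq2 (median 0.49, Myh4 0.55, Atp2a1 0.54). In the other lists, 1 plasma cell marker (Sdc1) fell and 2 rose (Jchain, Derl3), and 1 endothelial marker fell (Emcn). Of 6 osteocyte markers 1 rose (Fgf23), but 4 were below 0 (median -0.54), and DESeq2 called 2 lower and 1 higher. Of 6 megakaryocyte markers 0 passed, with 2 at an unadjusted p under 0.05 and 1 called higher by DESeq2 (median 0.48). Of 7 osteoclast markers 0 passed, with 2 at an unadjusted p under 0.05 and 1 called lower by DESeq2 (median -0.65). No marker was at 0 counts in any library.

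**Figure D5:**
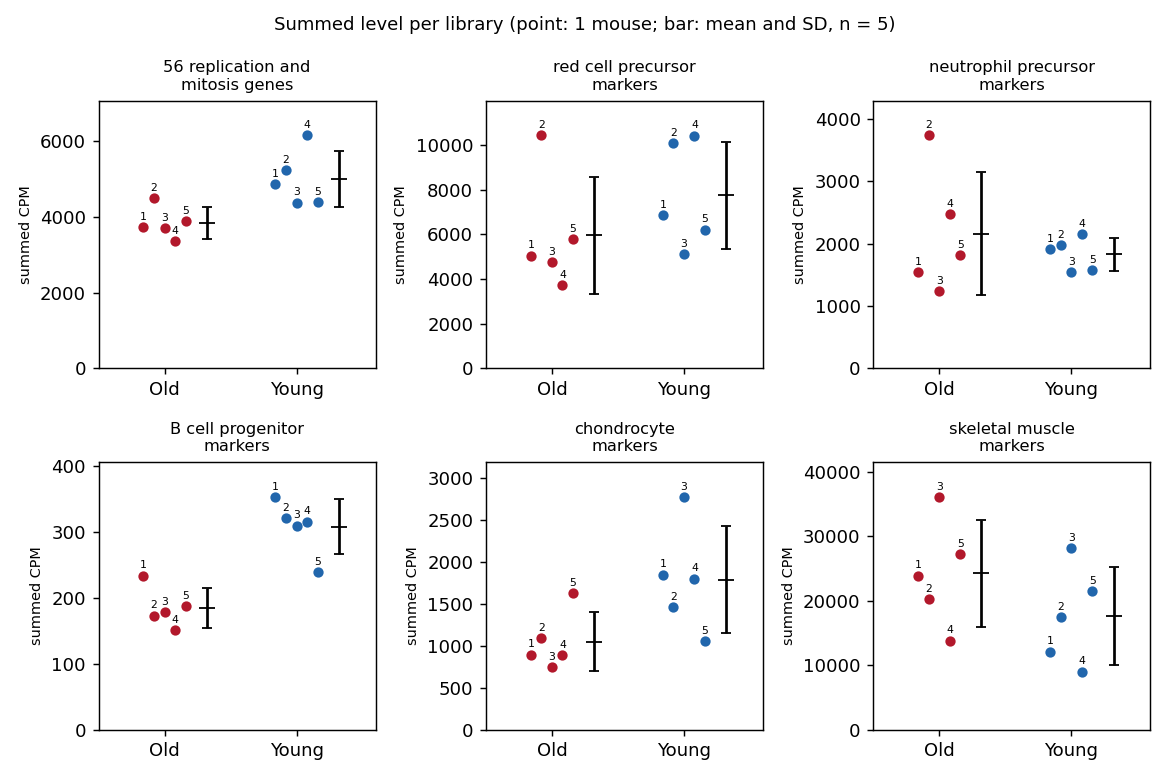
Summed CPM per library of the 56 members and of 5 marker lists (points, 1 mouse each, with library numbers; bars, mean and SD, n = 5), Old left of Young, each axis starting at 0. Old 2 is the highest Old point for the members and for both the red cell and the neutrophil precursor markers, but not for the B cell progenitor markers. The B cell progenitor panel is the one in which the groups do not overlap.

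With the mean log2 CPM of the red cell, neutrophil and B cell precursor markers as a covariate, 0 of 56 members passed the test (0.421% of all genes fell), their median log2 fold change was -0.08 and 46 of 56 stayed below 0. The covariate itself lay at 5.31 to 6.11 in Old and 5.84 to 6.28 in Young libraries, lower on average in Old, and the fit left 93 genes lower and 106 higher over the whole table. Under it Bub1 stood at -0.34 (edgeR's adjusted p = 0.513) and Ezh2 at -0.31 (0.526). With the muscle markers as covariate instead, 4 members fell (Bub1, Ezh2, Brca1 and Cenpa, with 3.21% of all genes) and the median was -0.29. The marrow precursor covariate includes the B cell progenitor markers, of which 8 of 9 fell, so that fit cannot separate marrow cell content from age. The part of any cell type in the result, chondrocytes, osteoblasts and plasma cells among them, was not tested.

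Some members share exonic bases with a gene on the other strand, and the sources used here do not state whether reads were counted by strand. Gins2 shares 67.3% of its exonic bases with Gse1, Kif20a 29.3% with Cdc23, Ube2c 22.8% with the muscle gene Tnnc2, and Ccne2 17.4% with Ints8. Of the members that fell, Kif4 shares 15.1% with Pdzd11, Ccna2 12.5% with Exosc9 and Ezh2 2.61% with Gm26625. Levels of these genes are uncertain to that extent. Processed copies of Ccnb1, Pcna, Ccnb2, Kif4 and Tyms have rows of their own, of which Ccnb2-ps held 32 to 101 counts a library and the others at most 33.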

How the data were processed

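RNA of flushed, pulverized femurs from 5 Old and 5 Young mice was sequenced as 1 library per mouse. The deposited table holds raw counts per gene. To make it the authors trimmed adapters with Cutadapt, mapped reads to GRCm38.p6 (mouse) with STAR and ran featureCounts. The labels list the human build hg38, but the gene identifiers are mouse Ensembl identifiers, and all 56 members have the same start and end in GENCODE vM21. Neither the annotation release nor the strand setting is given in the sources used here.

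The main test used edgeR 4.0.16 in R 4.3.3. After filterByExpr (minimum count 10 and total 15) and TMM scaling, Old was compared with Young by a robust quasi-likelihood test with Benjamini-Hochberg adjustment over 22088 genes. The standard error of a log2 fold change is its size over the root of F, with a median of 0.178 over all tested genes and 0.132 over the members. Alternatives were other scalings and filters, other thresholds, DESeq2 1.42.0, limma-voom (limma 3.58.1), 2 marker covariates, a replicate block and leaving out each library. Summed marker levels were compared by exact permutation. Steps were tested on simulated data. Promoters came from RefSeq. Python 3.11.15 was used for summaries and plots.

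The members and the lists of related genes and of markers (8 lists of members, 8 of other genes and 11 of markers) were chosen with earlier results of these data known. Values in every library are given for the 3 members with the smallest p in each role and for Mki67, Top2a, Cdk1, Ccnb1, Pcna and Mcm2. Up to 3 called genes with the smallest p are named for each further list and the 2 most abundant genes for the main marker lists; other names were chosen after their values were seen. No 2 libraries of a group agreed within sampling noise. P-values set the difference between Old and Young against the spread between these mice, and they cannot separate age from supplier. Some single genes of the further lists are counted but not reported by name here.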

Additional observations from a re-analysis of the deposited data

Results flagged for a closer look

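Dixon's test was run on the 5 libraries of each group for each member and each list, 166 sets in all, and 11 sets passed its critical value of 0.71. By chance about 1 in 20 sets would. In 9 of them Old 2 was the high library, for Kif20a (gap over range 0.878, 25.1 CPM against 17.5 to 18.4 in the other Old libraries), Cenpa (0.873, 71.6 against 54.98 to 57.1), Ccnb1 (0.784, 40.6 against 25.4 to 28.6), Cdc20 (0.758, 41.8 against 22.9 to 27.5), Birc5 (0.757, 46.6 against 34.5 to 37.5), Gins1 (0.743, 7.08 against 5.42 to 5.84), Cdk1 (0.724, 35.7 against 23.1 to 26.6), Mcm5 (0.722, 88.0 against 58.2 to 66.5) and E2f8 (0.711, 79.0 against 55.5 to 62.2). E2f1 was low in Old 1 (0.712, 22.4 CPM against 30.3 to 33.5 in the other Old libraries). Osteoblast markers summed to 45242 CPM in Old 5, against 18355 to 25712 in the other Old libraries (0.726). The members share libraries, so the 9 sets with Old 2 are not independent.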

How the results depend on the processing

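Under 21 alternatives 0 members were called higher, and those called lower numbered 9 in the fit reported, 15 with no filter on low counts, 20 with DESeq2, 4 with the muscle covariate, 0 with the marrow precursor covariate, 2 to 25 when 1 library was left out, 27 at a threshold of 0.1 and 0 at 0.01. The median log2 fold change of the members was -0.37 in the fit reported, -0.0817 with the marrow precursor covariate and -0.45 to -0.29 with 1 library left out. Total count scaling gave -0.53 but moved the median of all genes to -0.16, and 6 members were called. Further genes of the 8 lists called lower numbered 16 in the fit reported, 28 with DESeq2, 8 with the muscle and 0 with the marrow precursor covariate, and 3 to 23 with 1 library left out; called higher were 0, 2 with DESeq2, 1 with the replicate block and 0 to 1 with 1 library left out. Over all tested genes, 798 were called lower and 812 higher, against 1250 and 1546 with DESeq2, 93 and 106 with the marrow precursor covariate, 1483 and 1608 at a threshold of 0.1, and 249 and 174 at 0.01. Total count scaling called 285 higher, and leaving out 1 library gave 386 to 830 lower and 300.0 to 856 higher. Signs changed only for members above the threshold. Mybl2 was at 0.0315 with the muscle covariate and between -0.0709 and 0.0379 with 1 library left out, above 0 without Old 1, Old 4, Young 1 or Young 4. With the marrow precursor covariate the positive ones were Ube2c 0.234, E2f8 0.106, Cdc20 0.104, Bub1b 0.0949, Mybl2 0.0884, Plk1 0.0396, Kif2c 0.0392, Pcna 0.0303, Ttk 0.0114 and Cdc45 0.001. Of the calls, Bub1 held in 20 of 21 alternatives, Brca1 and Ezh2 in 19, Cenpa in 17, Kif4 in 13, Mcm4 in 11, Mcm2 in 10, Ccna2 in 9 and Mcm6 in 6, and the causes were not tested. Same-numbered mice did not pair (correlations -0.10 to 0.19 over 5522 genes), and the replicate block called 10 members lower, 7 of the 9 among them. With a median standard error of 0.13 for the members, decreases under 0.25 were not called.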
